A study of Homo sapiens with 10 samples.

Results

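The genes described here are those whose symbol starts with MRPL or MRPS, the subunit genes of the mitochondrial ribosome. The rule took 47 of the 11880 gene symbols in the table, 28 of the large subunit (MRPL) and 19 of the small subunit (MRPS). They were read in 10 subclones of U87MG, an established human glioma line, each grown out from a single cell, cultured attached in serum-containing medium and collected during exponential growth. The subclones are numbered 1, 2, 3, 5, 6, 8, 9, 10, 11 and 12 and were otherwise treated alike, with no drug, no genotype contrast and no second group. With 1 Affymetrix array for each, nothing is known of how much repeat cultures or repeat arrays of a subclone would differ. Differences between subclones are therefore given as values over the 10 arrays, and part of them may be technical.

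Mitochondrial ribosomes translate the few proteins encoded by mitochondrial DNA, all of them core subunits of the respiratory chain and ATP synthase. Their RNAs come from the mitochondrial genome, whereas every protein of the particle is encoded in the nucleus, made in the cytosol and imported. Promoters of such nuclear genes for mitochondrial proteins are known for sites of ETS factors of the GABP type, of NRF1 and of YY1. Some MRPS symbols are historical: MRPS30 and MRPS18A lie in the large subunit in structures of the human particle, and they are counted by symbol here.

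Promoters of 6 members are shown first because the letters near their start sites are part of what many members share; they were picked as examples by their letters and by how closely the gene followed the other members. Of the 47 members, 41 had a promoter entry in the RefSeq table for GRCh38.p14. Each line gives 120 bases before and 30 bases from the start site, in the direction of transcription. Capitals mark the ETS letters CCGGAAG, which appear as CTTCCGG where the match is on the other strand, and the YY1 letters AAGATGGC, searched on both strands. MRPS7 (chr17:75261759-75261908, plus strand), MRPS22 (chr3:139343874-139344023, plus strand), MRPS18A (chr6:43687762-43687911, minus strand) and MRPS10 (chr6:42217832-42217981, minus strand) had the highest correlations with the other members among promoters with a match inside the bases shown. MRPS18B followed the others more closely than these 4, but its YY1 match, which begins 24 bases after the start site, runs past them. MRPL17 (chr11:6683311-6683460, minus strand) and MRPS17 (chr7:55951757-55951906, plus strand) had the lowest among promoters with no match. MRPL16, with the lowest correlation of all tested members, does hold an ETS match, 6 bases before its start site, so the 6 promoters are not a comparison.
MRPS7: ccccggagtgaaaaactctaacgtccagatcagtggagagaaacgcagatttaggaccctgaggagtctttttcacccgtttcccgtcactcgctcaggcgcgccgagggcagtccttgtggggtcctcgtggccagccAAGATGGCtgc
MRPS22: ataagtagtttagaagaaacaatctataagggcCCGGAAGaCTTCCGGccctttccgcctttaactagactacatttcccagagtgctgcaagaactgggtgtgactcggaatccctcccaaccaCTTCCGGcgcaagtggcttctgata
MRPS18A: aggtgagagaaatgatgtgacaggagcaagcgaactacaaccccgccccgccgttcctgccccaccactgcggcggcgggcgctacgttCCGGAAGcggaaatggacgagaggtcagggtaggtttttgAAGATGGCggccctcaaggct
MRPS10: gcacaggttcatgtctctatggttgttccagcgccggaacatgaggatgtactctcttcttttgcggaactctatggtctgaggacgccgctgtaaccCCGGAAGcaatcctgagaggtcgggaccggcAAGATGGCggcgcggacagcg
MRPL17: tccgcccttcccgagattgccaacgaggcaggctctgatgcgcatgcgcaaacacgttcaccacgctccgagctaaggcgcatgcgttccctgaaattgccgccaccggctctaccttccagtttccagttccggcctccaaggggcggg
MRPS17: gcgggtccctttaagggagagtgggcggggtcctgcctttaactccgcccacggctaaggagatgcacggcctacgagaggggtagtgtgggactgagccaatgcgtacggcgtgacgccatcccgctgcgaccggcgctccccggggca

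In MRPS18A and MRPS10 an ETS match before the start site was followed by a YY1 match just after it, MRPS22 held 3 ETS matches, and MRPS7 held a YY1 match alone. Over the whole window of 250 bases before to 50 after the start, the ETS letters occurred in 16 of 41 members (39%) against 14.2% of 15843 promoters of protein-coding genes. The YY1 letters occurred in 12 of 41 (29.3%) against 3.91%. At least 1 of the 2 motifs was found in 23 members (56.1%, against 17.2%), and both in 5 (12.2%, against 0.903%), with no overlap between the letters of the 2. Of 21 ETS matches in members 17 began within 100 bases before the start, and of 13 YY1 matches 10 began after it. The shares of the other letters searched were close to or below those over all promoters. The NRF1 motif was in 2 members (4.88%, against 8.58%), the E-box CACGTG in 2 (4.88%, against 8.88%), CCAAT in 11 (26.8%, against 36.4%) and the GC box GGGCGG in 25 (61%, against 58.5%). Both subunits held the motifs: ETS letters were in 8 of 23 large and 8 of 18 small subunit promoters, and YY1 letters in 5 of 23 and 7 of 18. A letter match is a description and not a binding site. The shares over all promoters include genes that were not tested here, and no share over tested genes alone was computed. How closely a member followed the others differed little with the letters: the median correlation with the other members was 0.70 in 14 genes with ETS letters and 0.68 in 23 without, and 0.75 in 10 with YY1 letters and 0.69 in 27 without.

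In what follows a level is the RMA log2 value minus the median of its array, and a deviation is a level minus the gene's mean level over the 10 subclones, so that 1 unit is a 2-fold difference. Levels of different genes are not compared, because a probe's brightness depends on its sequence. A gene was tested when its mean over the arrays reached the median of the whole table, 5.00 on the deposited scale. This left 5959 genes, among them 43 members, 25 large and 18 small. Their deposited values averaged from 5.58 for MRPL2 to 10.68 for MRPL3. The 4 members below this level were MRPL41, MRPL44, MRPL52 and MRPS12, and they are described apart.

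Array medians were lowest in subclone 10 (4.87) and highest in subclone 9 (5.11), and the upper quartiles of subclones 10 and 11 (6.75 and 7.02) lay below those of the other 8 (7.17 to 7.36). Subclone 10 stood apart: over the tested genes its median deviation was -0.18, while in the other 9 subclones it lay between -0.03 and 0.07. No columns were identical, and pairs of arrays correlated at 0.937 to 0.993. The glioma and astroglial markers NES, CD44 and CHI3L1 were above the table's median, and the other 6 of 9 (GFAP, S100B, AQP4, OLIG2, SOX2 and EGFR) were not. Of 10 measured markers of leukocytes, endothelium and epithelium, KRT8, a keratin, passed the same level and the other 9 averaged 4.16 or less.

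The subunit genes of the mitochondrial ribosome were low together in subclones 2, 3 and 5 and high together in subclones 1, 6 and 9. Whether subclones 2, 3 and 5 are closely related to each other was not tested, so they may not count as separate observations. Subclone 3 had the lowest mean deviation of the 43 members, -0.40, followed by subclones 5 and 2 with -0.29 and -0.25. Subclones 6, 9 and 1 had the highest, 0.35, 0.29 and 0.24. Subclones 11 and 12 followed with 0.17 and 0.11, and subclone 8 was near 0 (-0.03). The mean over all tested genes lay between -0.08 and 0.07 in these 9 subclones. The distance from subclone 3 to subclone 6 was 0.76 on the log2 scale for the members' mean. For the 1362 other tested genes whose mean value lay within the members' quartiles, the lowest and highest subclone means were -0.23 and 0.10. In subclone 10 the members' mean was -0.20, the same as the mean over all tested genes, and its sign depended on the scaling: with the median of tested genes subtracted in place of the array median, the large subunit stood at 0.17 and the small at 0.013.

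Most members took part. In subclone 3, 42 of 43 lay below their own mean, where 52.6% of all tested genes did. The one exception was MRPS31, at 0.01 above its own mean. In subclone 5 the count was 41 of 43 (52.5% of all tested genes) and in subclone 2 it was 39 of 43 (50.2%). In subclone 6, 40 of 43 lay above their own mean, where 61.3% of all tested genes did. Subclone 1 had 33 above (53.3% of all tested genes), subclone 9 had 32 (52.8%), and subclones 11 and 12 had 31 each (47.4% and 58.7%). Subclone 8 was split, with 21 members above (57.1%). In subclone 10, 29 of 43 lay below, close to the 66.8% of all tested genes that did.

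**Figure D1:**
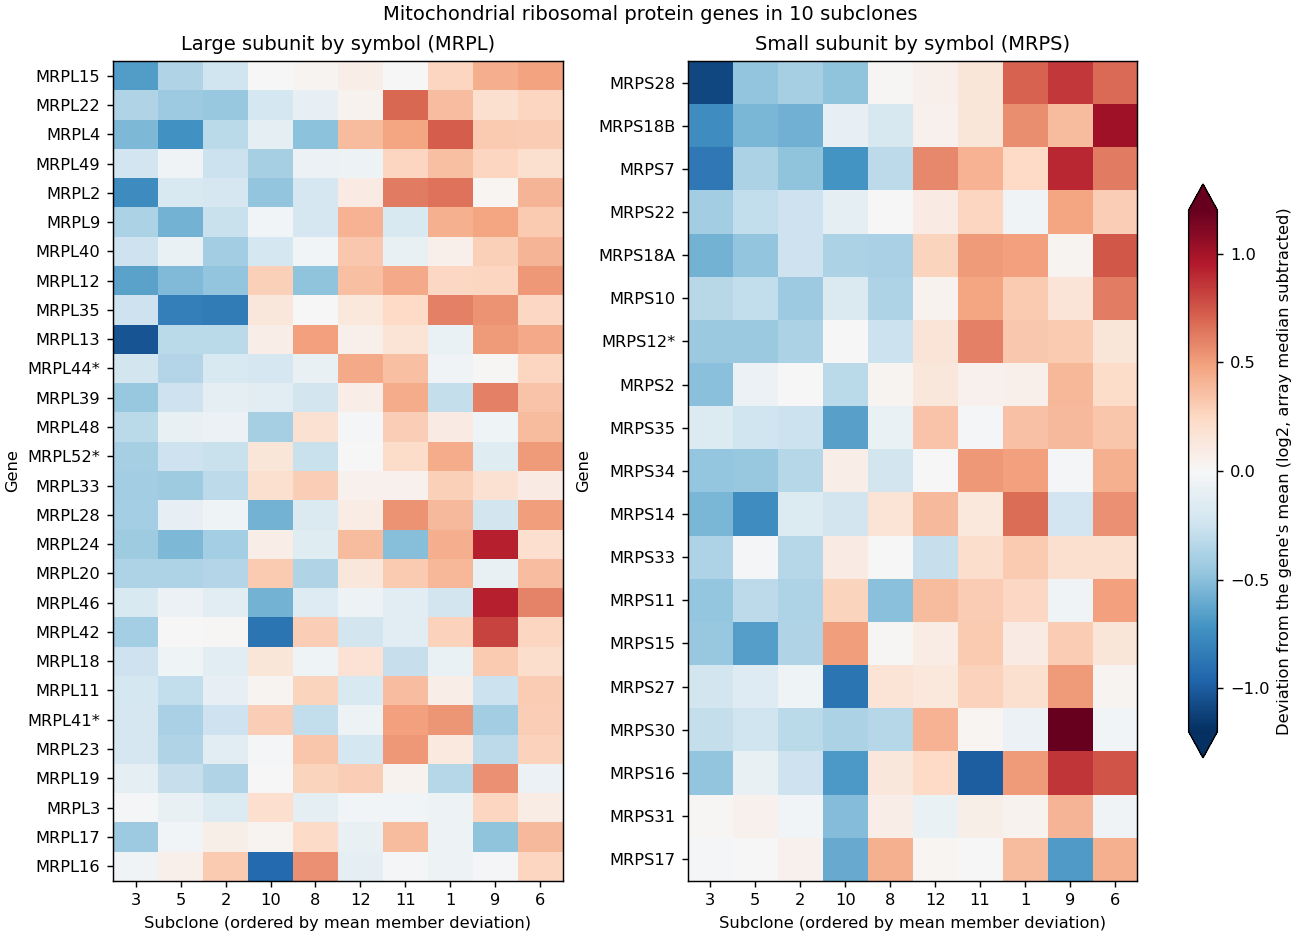
Colour shows the deviation of each of the 47 members by subclone (log2 level minus the gene's mean over the 10 subclones). Large and small subunit genes are in separate blocks, and stars mark the 4 members below the level of the filter. The columns of subclones 2, 3 and 5 are mostly on the low side and that of subclone 6 mostly on the high side. Of the 43 tested members, 42 lie below their own mean in subclone 3 and 40 above it in subclone 6.

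Differences of a single gene in a single subclone were mostly modest. Against the median of the other 9 subclones, 12 of 43 members were at least 1.5-fold lower in subclone 3 (5.42% of all tested genes were), 8 in subclone 5 (5.77%) and 6 in subclone 2 (4.56%), and none was that much higher in any of the 3 (6.85%, 8.32% and 7.74%). In subclone 6, 10 members were at least 1.5-fold higher (6.83% of all tested genes) and none that much lower (3.99%). Subclone 9 also had 10 that were higher, with a share of 14% over all tested genes, and 1 that was lower (12.7%). In subclone 1, 8 were higher (7.82%) and none lower (8.36%). Subclone 11 had 7 higher (7.94%) and 2 lower (15.8%). Subclone 12 had 3 higher (6.91%) and none lower (5.32%), and subclone 8 had 3 lower (5.15%) and none higher (8.73%). Subclone 10 had 7 lower and none higher, where 22.3% and 3.86% of all tested genes were. Of the 77 such differences over the 10 subclones, 11 reached 2-fold. The counts depended on the scaling. With the tested genes' median subtracted, subclones 1, 6 and 12 had 4, 6 and 1 higher, and subclone 10 had 3 lower and 5 higher. With no subtraction, subclones 2, 3 and 5 had 3, 8 and 5 lower, subclone 10 had 15 lower and subclone 9 had 16 higher.

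The large and the small subunit moved alike. Their mean deviations over the 10 subclones had a Pearson r of 0.98 and a Spearman rho of 0.98, and r was 0.97 over 8 subclones without 3 and 5, those farthest from the median. Both sets of genes come from the same arrays, so whatever shifts an array shifts both. In subclone 3 the 25 large subunit genes averaged -0.38 and the 18 small subunit genes -0.44. In subclone 6 the averages were 0.31 and 0.42, in subclone 9 they were 0.26 and 0.34, and in subclone 1 they were 0.18 and 0.31. The small subunit's averages spread slightly farther, with an SD over subclones of 0.31 against 0.24. The difference of large minus small ran from -0.13 in subclone 1 to 0.16 in subclone 10. It was positive in all 5 subclones in which the small subunit's mean was below 0 (2, 3, 5, 8 and, with the scaling used here, 10) and negative in 4 of the other 5, with 0.02 in subclone 11. There is no replicate spread to set these differences against, and with medians over genes in place of means their sign turned in subclone 8 (0.08 to -0.06) and their range widened from 0.28 to 0.47. With MRPS30 and MRPS18A counted as large subunit genes instead, the means in subclone 9 were 0.29 (large) and 0.30 (small). In subclone 8 they were then -0.02 and -0.04. The range of large minus small was 0.27 under this count, and the large-small r was 0.98.

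**Figure D2:**
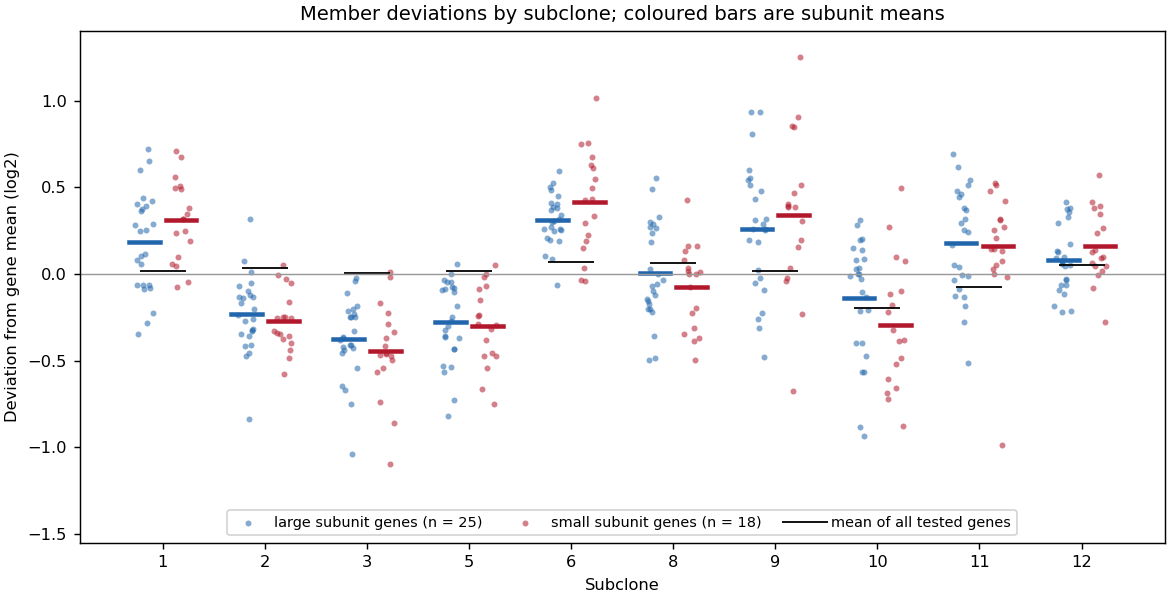
Mean deviation (log2) of large and small subunit genes in each subclone (coloured bars), with the individual genes as points and the mean of all tested genes as a black line. Both subunits are low in subclones 2, 3 and 5 and high in 1, 6 and 9, and the small subunit lies farther out in subclone 6 (0.42 against 0.31).

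Seen pair by pair, the 903 pairs of members had a mean correlation of 0.46 over the 10 subclones, and 90.9% of them were positive. Over the 17751861 pairs of all tested genes the mean was 0.04 and 53.8% were positive. Pairs within the small subunit (mean r 0.51), within the large subunit (0.41) and across the 2 subunits (0.47) were all above the mean of all pairs. A correlation of at least 0.7 was reached by 22.9% of member pairs and by 4.53% of all pairs, and by 31.4% of small subunit pairs and 16% of large subunit pairs. Measured against the mean deviation of the other members, 23 of 43 reached 0.7, where 9.31% of all tested genes reached it with the members' mean, and none was below 0, where 42.3% were. Each of these correlations rests on 10 arrays that both genes share.

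**Figure D3:**
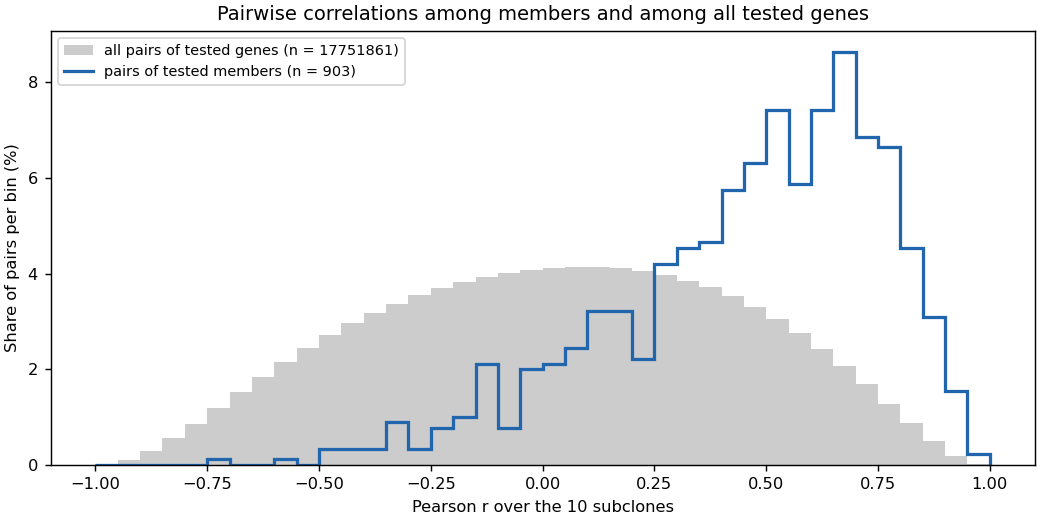
Distribution of Pearson correlations over the 10 subclones (horizontal axis) as the share of pairs per bin (%), for pairs of members (line) and pairs of all tested genes (grey). The members' distribution is shifted to positive values, with a mean of 0.46 against 0.04.

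The members that followed the others most closely were mostly of the small subunit. MRPS28, a small subunit protein whose mutation causes a combined oxidative phosphorylation deficiency, had levels from 1.96 in subclone 3 through a median of 3.09 to 3.90 in subclone 9. Subclones 1 (3.76) and 6 (3.73) were close to the highest, while 10 (2.57), 5 (2.58) and 2 (2.66) followed subclone 3 at the low end. Its span of 3.84-fold was the largest of any tested member and its correlation with the others was 0.96. MRPS18B, a small subunit paralog of MRPS18A, ran from 1.17 in subclone 3 through a median of 1.88 to 2.93 in subclone 6, a span of 3.38-fold (r 0.93). MRPS7, a ribosomal RNA-binding protein of the subunit's head, had a low of 2.14 in subclone 3, a median of 2.96 and a high of 3.91 in subclone 9. Its span was 3.40-fold (r 0.92), and subclones 6 (3.63) and 12 (3.58) came next at the high end. MRPS22, a protein of the small subunit without a bacterial counterpart and mutated in the same class of disease, moved over a narrower 1.85-fold, from 2.92 in subclone 3 through 3.32 to 3.81 in subclone 9, with an r of 0.90. MRPS18A ran from 1.42 in subclone 3 through 1.88 to 2.74 in subclone 6 (r 0.87), and MRPS10, homolog of a bacterial head protein, from 2.15 in subclone 2 through 2.52 to 3.20 in subclone 6 (r 0.86). In all 6 of these genes subclone 6 or 9 was highest and subclone 2 or 3 lowest.

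In the large subunit MRPL15, homolog of a bacterial large subunit protein, was the closest to the rest (r 0.92). Its levels ran from 3.05 in subclone 3 through 3.73 to 4.20 in subclone 6. Genes of proteins around the peptide exit tunnel varied in their fidelity to the group. MRPL4 ranged from 1.37 in subclone 5 through 2.20 to 2.82 in subclone 1 (2.74-fold, r 0.84) and MRPL22 from 3.42 in subclone 2 through 3.85 to 4.57 in subclone 11 (2.22-fold, r 0.84). MRPL24 ran from 4.45 in subclone 5 through 4.95 to 5.92 in subclone 9, with 4.47 in subclone 11 close to the lowest (r 0.66). MRPL23 reached its highest level in subclone 11, 5.09, and its lowest in subclone 5, 4.22, with a median of 4.50 (r 0.40). So each of these 4 genes was lowest in subclone 2 or 5 and highest in subclone 1, 9 or 11. Their other low values were not shared: MRPL23 was at 4.26 in subclone 9, where MRPL24 was highest.

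At the stalk, which recruits translation factors, MRPL12 and MRPL11 behaved differently. MRPL12, a stalk protein also reported to bind the mitochondrial RNA polymerase, fell into a low set of levels, 3.16 to 3.34 in subclones 2, 3, 5 and 8, and a high set, 4.06 to 4.33 in the other 6. Its median was 4.06, its span 2.25-fold and its r 0.80. MRPL11, at the stalk base, ran only from 2.59 in subclone 5 through 2.85 to 3.26 in subclone 11 (1.59-fold, r 0.44). MRPL2 and MRPL3 sit near the peptidyl transferase centre, and here too the genes parted. MRPL2 had a low of -0.19 in subclone 3, a median of 0.49 and highs of 1.22 in subclone 1 and 1.18 in subclone 11 (2.65-fold, r 0.82). MRPL3 had the smallest spread of all tested members, from 5.50 in subclone 2 through 5.63 to 5.92 in subclone 9, with an SD of 0.14 and a span of 1.34-fold. With the tested genes' median subtracted its SD was 0.21, above the 0.16 of MRPS31.

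Other large subunit genes with a wide spread were MRPL35 and MRPL13. MRPL35 had its lowest levels in subclones 2 (2.57) and 5 (2.59), a median of 3.54, and 3.16 to 4.01 in the other 8. MRPL13, homolog of an early assembly protein of bacteria, was at 1.87 in subclone 3 and at 2.58 to 3.41 elsewhere, with a median of 2.97. In both genes the lowest values lay in subclones 2, 3 or 5. MRPL19, also with a bacterial homolog, was farther from the group: 2.35 in subclone 2 and 2.36 in subclone 1, a median of 2.68 and 3.26 in subclone 9 (r 0.39). MRPL18, in the central protuberance, was among the narrowest, from 4.77 in subclone 11 through 5.00 to 5.37 in subclone 9.

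Among small subunit genes with a narrower spread, MRPS2, homolog of a bacterial protein, ran from 1.77 in subclone 3 through 2.31 to 2.66 in subclone 9 (r 0.83). MRPS33, without a bacterial counterpart, was lowest in subclones 3 (4.43), 2 (4.46) and 12 (4.53), with a median of 4.85 and 5.12 in subclone 1 (r 0.69). MRPS15, homolog of a ribosomal RNA-binding protein of bacteria, was at 2.24 in subclone 5, a median of 3.00 and 3.40 in subclone 10, its highest (r 0.63).

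Several members departed from the group. MRPS16, a small subunit protein mutated in combined oxidative phosphorylation deficiency, had levels of 4.25 in subclone 9 and 4.14 in subclone 6, a median of 3.41, and a lowest level of 2.40 in subclone 11, a subclone in which most members were above their mean. Its span was 3.58-fold, and its correlation with the others was 0.58. MRPS30 was at 4.04 in subclone 9, 2.81-fold above the median of the others, at 3.21 in subclone 12 and at 2.41 to 2.82 in the remaining 8. MRPL16, at 3.67 in subclone 8 and 2.19 in subclone 10 with a median of 3.10, was above its own mean in subclones 2, 5, 6 and 8 and had the lowest correlation of all tested members, 0.13. MRPS17 was lowest in subclone 9 (1.09) and subclone 10 (1.16), against 1.75 to 2.20 in the others (r 0.13). MRPL17 was lowest in subclone 9 as well, at 4.87, with 4.91 in subclone 3 and 5.73 in subclone 6 (r 0.24). MRPS27, a pentatricopeptide repeat protein of the small subunit, was at 1.77 in subclone 10 and at 2.42 to 3.16 in the others. By Dixon's criterion for a single value apart from 9 others, 4 of 43 members had such a subclone (MRPL16, MRPS27 and MRPS31 in 10, MRPS30 in 9), where 8.94% of all tested genes had one. The low values in subclone 10 stand beside a tested-gene median of -0.18 in that array. Without subclone 10 the SD of MRPL16 was 0.22 in place of 0.39 and that of MRPS27 0.23 in place of 0.37, and without subclone 9 the SD of MRPS30 was 0.25 in place of 0.50.

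**Figure D4:**
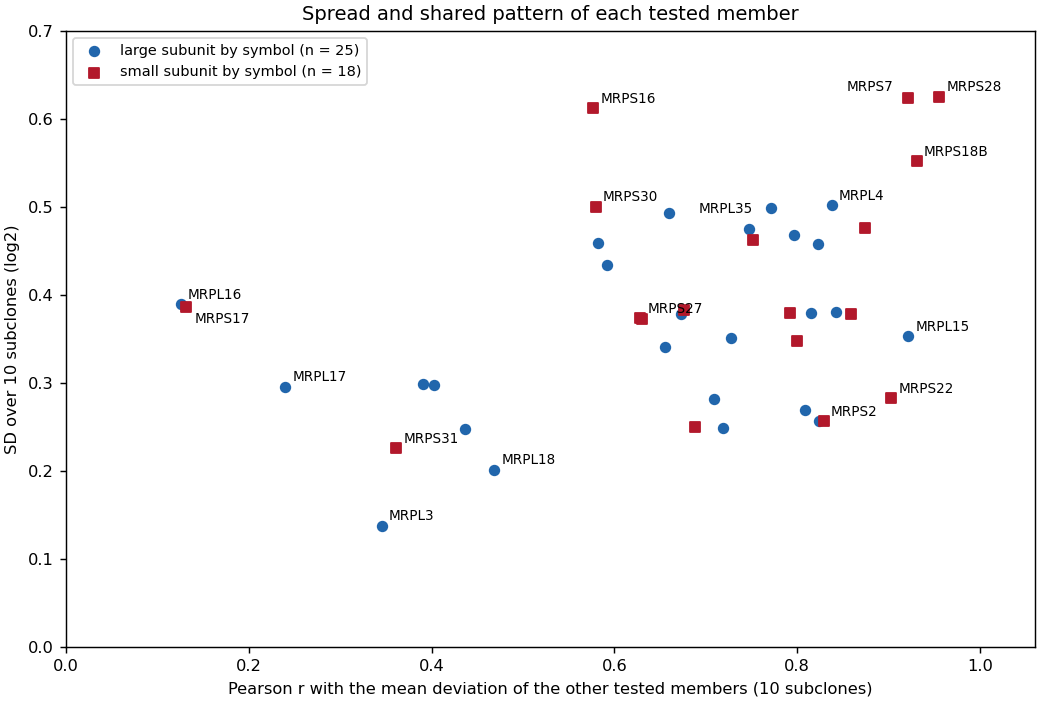
Standard deviation of each tested member over the 10 subclones (log2) against its Pearson correlation with the mean deviation of the other members. MRPS28, MRPS18B and MRPS7 combine a large spread with a correlation above 0.9, whereas MRPL16 and MRPS17 lie near 0.13.

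Where each member had its extremes followed the same lines. Subclone 3 held the lowest level of 13 members (8.93% of all tested genes were lowest there), subclone 5 of 9 (8.89%) and subclone 2 of 6 (6.28%). Subclone 10 held the lowest of 10, where 24.4% of all tested genes were lowest. The highest level fell in subclone 9 for 18 members (19.3%), in subclone 6 for 10 (10.4%), in subclone 1 for 7 (9.82%) and in subclone 11 for 5 (12%). None was highest in subclones 2, 3, 5 or 12 (5.74%, 7.06%, 8.12% and 9.88%).

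The size of the spread, unlike its pattern, was close to that of other genes. A span of at least 2-fold was found in 26 of 43 members (60.5%; 14 of 25 large and 12 of 18 small), where 56.5% of all tested genes had one. The members' median SD was 0.38, with a range from 0.14 to 0.63, and the median over all tested genes was 0.34. By limma's robust variance test, which compares each gene's variance with that of genes of like mean value, 0 members passed an adjusted p of 0.05, where 0% of all tested genes did. No member had an unadjusted p under 0.05, where 5.17% of all tested genes had, and the lowest was 0.0966, for MRPS16 (adjusted p 0.97 by limma's test). Since the test's distribution is fitted to these same variances, an absence of calls is no evidence that members did not differ. The non-robust form of the fit also called 0 members (0% of all tested genes). A chi-square test that takes the fitted trend as each gene's true variance called 6 members (MRPL12, MRPL24, MRPL35, MRPS7, MRPS16 and MRPS28), 14% of the 43 against 19.4% of all tested genes.

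Of the 4 members below the level of the filter, MRPL41, MRPL44 and MRPL52 lay near the lower quartile of their arrays, where RMA compresses differences, and MRPS12 lay above it. On the deposited scale MRPL44 averaged 3.86 ± 0.25 (SD, n = 10), MRPL52 3.79 ± 0.27, MRPL41 3.86 ± 0.31 and MRPS12, homolog of the bacterial decoding-centre protein, 4.61 ± 0.34. MRPS12 was above its array's median in subclone 11, by 0.21, and lowest in subclones 3 and 5 (-0.85 and -0.84). Its correlation with the tested members was 0.84, and those of MRPL44, MRPL52 and MRPL41 were 0.73, 0.72 and 0.43. The array medians subtracted here were 5.10 to 5.11 in subclones 2, 3, 5 and 9 and 4.87 to 5.00 in the others, so subtracting them by itself lowers genes at a fixed floor in subclones 2, 3, 5 and 9. In subclone 9 the 4 untested members had a mean deviation of -0.06, where the tested members had 0.29. For the tested members, omitting the subtraction moved the mean of the large subunit in subclone 3 from -0.38 to -0.28 and that of the small subunit from -0.44 to -0.35.

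Subunits that carry other symbols were read from a separate list, of which 6 were tested. Their mean deviation had an r of 0.83 with that of the members over the 10 subclones. ICT1, a peptidyl-tRNA hydrolase built into the large subunit, reached 0.85 and AURKAIP1, of the small subunit, 0.77. DAP3, a GTP-binding protein of the small subunit, had levels from 2.59 in subclone 5 through 3.04 to 3.93 in subclone 9 and an r of 0.57. PTCD3, a pentatricopeptide repeat protein of the small subunit, was unlike the members, at 0.91 in subclone 10, a median of 1.74 and 2.48 in subclone 12 (r -0.04). MRP63 (MRPL57) also had a low r, 0.19, and was lowest in subclone 9, at 1.09. The median r of the 6 was 0.60.

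Genes that make and serve the mitochondrial ribosome followed in part. Ribosome assembly factors, with 11 tested, had an r of 0.83 with the members and were highest in subclone 9 (mean deviation 0.32) and subclone 6 (0.21). They were lowest in subclone 10 (-0.21), whose shift depends on the scaling, and subclone 8 (-0.17), and stood at -0.07, -0.12 and -0.14 in subclones 2, 3 and 5. Among them MTG1, a GTPase of large subunit assembly, ran from 0.21 in subclone 8 through 0.75 to 1.68 in subclone 6 (r 0.76), and RNMTL1, a methyltransferase of the large ribosomal RNA, had an r of 0.79. These were the highest r values of the 11. The median r of the single assembly factors was 0.54, and the lowest was -0.36, for GRSF1. For genes of mitochondrial transcription and RNA handling the list's r was 0.73 over 13 genes. These include POLG, SSBP1 and C10orf2, which act in replication of mitochondrial DNA. The elongation factor C17orf42 (TEFM) was at 0.86, while MTPAP, the mitochondrial poly(A) polymerase, was highest in subclone 3 (1.70), lowest in subclone 10 (-0.42) and had an r of -0.12. Mitochondrial tRNA synthetases had a list r of 0.67 over 9 genes, and of these YARS2 alone reached 0.7. The list includes PET112L (GATB), an amidotransferase subunit and not a synthetase, and GARS and KARS, which also encode cytosolic enzymes. The synthetases with the largest SDs, HARS2 and TARS2, were at 0.17 and 0.22. Translation factors, with 4 tested, had a list r of 0.63. Of these the elongation factor TUFM and TACO1, an activator of COX1 translation, were each at 0.72, and the release factor MTRF1 was at -0.11.

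For nuclear genes of the respiratory chain and ATP synthase, whose complexes other than complex II also hold mitochondrially encoded subunits, the list mean had an r of 0.87 with the members over 66 tested genes. Without subclones 3 and 5 it was 0.77, below the 0.85 of assembly factors and the 0.82 both of transcription and RNA genes and of subunits under other symbols, so the order of the lists rests on those subclones. Of the 66, 26 reached 0.7 with the members, against the 9.31% of all tested genes. They were low in subclones 2, 3 and 5 (-0.26, -0.28 and -0.24) and highest in subclone 1 (0.28), but in subclone 9, where the members stood at 0.29, their mean was 0.06. NDUFS4, a complex I subunit with the largest SD of the list, was at 2.09 in subclone 10, a median of 3.76 and 4.41 in subclone 11 (r 0.59). CYC1, cytochrome c1 of complex III, followed the members at 0.88, from 3.61 in subclone 3 through 4.99 to 5.44 in subclone 1. By complex the list's r was 0.87 for complex I, 0.90 for II, 0.90 for III, 0.65 for IV and 0.87 for V. A 2-fold span was found in 21 of the 66 (31.8%), against 60.5% of the members and 56.5% of all tested genes.

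Cytosolic ribosomal proteins, the counterparts that translate nuclear messages, shared the low values in subclones 2, 3 and 5 (-0.18, -0.24 and -0.21). They did not share the members' high mean in subclone 9. There the 72 tested genes averaged -0.12 and the members 0.29. Subclone 11 was their highest, at 0.24. Their r with the members was 0.68, 0.40 without subclones 3 and 5, and 0.86 without subclone 9. Only 4 of the 72 spanned 2-fold, among them RPL38 and RPL37A, the 2 with the largest SD of the list. Of 5 tested regulators of mitochondrial biogenesis, ESRRA, a nuclear receptor, reached an r of 0.72 with the members. MYC was at 0.53, with its lowest level in subclone 3 (2.40, with a median of 3.11 and a high of 3.70 in subclone 11). GABPB1, a subunit of the ETS factor GABP, was at -0.23, and YY1 was at -0.38 with a span of only 0.50 on the log2 scale. An RNA level says nothing of a factor's activity. By the robust variance test none of the tested genes on these lists passed, and by the chi-square test 8 of 66 respiratory genes and 8 of 72 cytosolic ribosomal proteins did, against 19.4% of all tested genes.

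**Figure D5:**
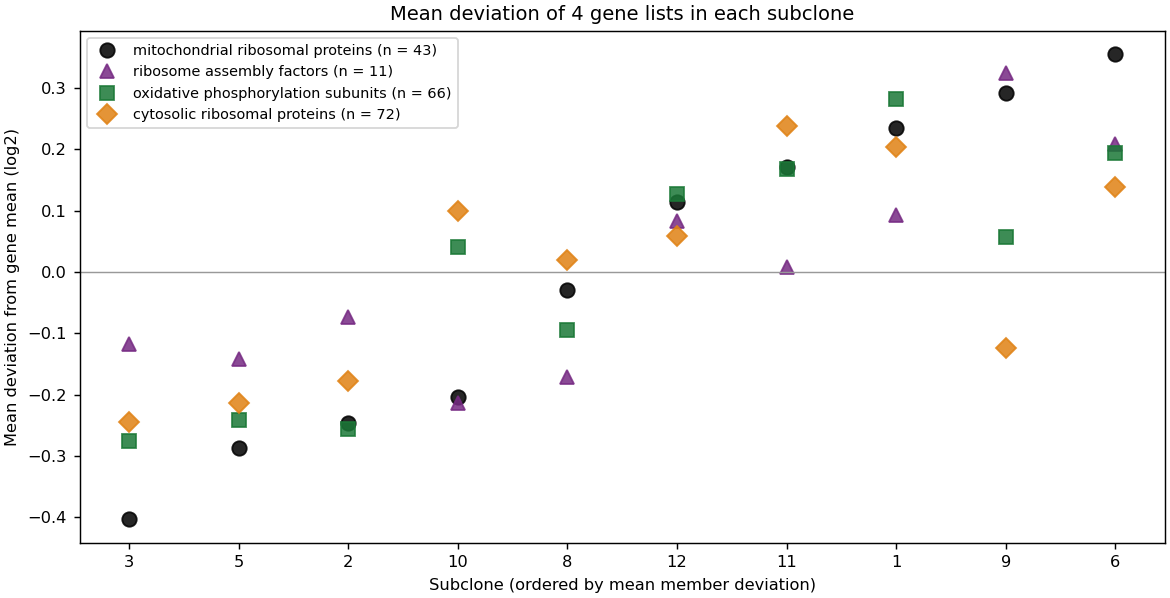
Mean deviation (log2) by subclone for the members, ribosome assembly factors, respiratory genes and cytosolic ribosomal proteins, with subclones ordered by the members' mean. All 4 sets lie below 0 in subclones 2, 3 and 5, the assembly factors least (-0.07 to -0.14), and in subclone 9 the members (0.29) stand apart from respiratory genes (0.06) and cytosolic ribosomal proteins (-0.12).

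The members are scattered over 19 chromosomes, with at most 6 on 1 of them, chromosome 11 (MRPL11, MRPL16, MRPL17, MRPL23, MRPL48 and MRPL49). Pairs on the same chromosome had a mean r of 0.59 over 50 pairs, and pairs on different chromosomes 0.45 over 853. Same-chromosome pairs ranged in r from -0.003 to 0.99. The closest pair of all was MRPL11 with MRPL23 (r 0.99), both on chromosome 11, and MRPL15 with MRPS28 (0.94, chromosome 8), MRPS10 with MRPS18A (0.94, chromosome 6) and MRPL24 with MRPL9 (0.92, chromosome 1) were also among the 8 closest. Of the 20 closest pairs 6 lay on the same chromosome, as did 50 of all 903 pairs. MRPL12 with MRPS11, on different chromosomes, reached 0.96. Against the median deviation of the other tested genes of its own chromosome a member's r had a median of 0.56, and against the other members 0.72. Of the 43, 32 were closer to the other members. No share over all tested genes was computed for this count, so it does not weigh membership against chromosome. A median over a whole chromosome need not follow a change in part of it. DNA copy number of the subclones was not analysed here. The part of chromosome dosage in these correlations was not tested.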

How the data were processed

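The authors deposited 1 log2 value per gene symbol and array, made with RMA per the submitters' processing notes. This method subtracts background, forces the probe signals of all arrays to one distribution and joins each set of probes into a log2 value, so total RNA per cell is not visible. Not given in the sources used here are its version, the probe annotation and how several probe sets became 1 value per symbol. Values lay between 2.73 and 13.70. That they are log2 was read from the method and this range. Arrays carry no counts or depth, and the number of arrays, 1 for each of the 10 subclones, limits the precision.

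Each array's median was subtracted, and genes whose mean reached the table's median were tested. The earlier account of these data filtered on the highest value, which admits genes through 1 bright array. That filter, no filter, 4 other scalings, medians over genes, subunits by structure, the leaving out of each subclone and other fold thresholds were alternatives. Leaving out subclones 10 and 11 together was added after seeing the data. Variances over the subclones (9 degrees of freedom) were tested with limma 3.58.1 in R 4.3.3, with a robust trend, tail p-values and Benjamini-Hochberg adjustment over all tested genes at 0.05. Its prior had 4.24 degrees of freedom. The test was also run on simulated data whose background variances differed less between genes than in the fit here. That run does not show how well it detects differences in these data. Shares past each threshold were computed over all tested genes. Correlations, fold rules and list means are descriptions. Summaries used Python 3.11.15.

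The members, gene lists and motifs were chosen with earlier results of these data known. The members named are those with the largest and smallest spread of each subunit, the highest and lowest correlations with the others, the farthest value in each subclone, and 13 chosen for known roles (MRPS36 was not analysed here), with the 2 widest genes of each other list. Members and related genes named beyond these were named after their values were seen. Promoters come from RefSeq for GRCh38.p14, 1 per gene, with 3 members on chromosome 8 not shown. No chromosome coordinates were given to the arrays' genes.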

Additional observations from a re-analysis of the deposited data

Results flagged for a closer look

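In 4 members 1 subclone lay apart from the other 9 by more than Dixon's 95% criterion for 10 samples. MRPL16 had a level of 2.19 in subclone 10, with a gap to its neighbour of 0.55 of its range. MRPS31, a small subunit protein without a bacterial counterpart, was at 2.15 in the same subclone (0.47 of its range), and MRPS27 was at 1.77 there (0.47). MRPS30 stood at 4.04 in subclone 9 (0.51). These are 4 of 43 tested members, 9.3%, and 8.94% of all tested genes had such a subclone. Chance gives about 1 in 20. The 3 low values in subclone 10 lie on an array whose tested-gene median was -0.18, and the part of that shift in them was not tested.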

How the results depend on the processing

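The low means of both subunits in subclones 2, 3 and 5 and the high ones in subclones 1, 6 and 9 kept their sign under all 4 other scalings, both other filters and medians over genes. In subclone 10 the direction turned: with the tested genes' median or the upper quartile subtracted, the large subunit stood at 0.17 and 0.167 in place of -0.14, and the small at 0.013 and 0.0078 in place of -0.30. These scalings and quantile normalization raised that array's tested-gene median by 0.30 to 0.31 relative to the others. A span threshold of 1.5-fold raised the count of members from 26 to 42, the chi-square test raised the variance calls from 0 to 6, and a 2-fold threshold cut single differences from 77 to 11. The range of large minus small grew from 0.28 to 0.47 with medians over genes. The large-small correlation was 0.926 with medians and 0.989 without subclones 10 and 11. Under quantile normalization assembly factors had an r of 0.931 with the members and respiratory genes 0.901. Why these values moved was not tested, apart from the thresholds, which act by construction. Leaving out each subclone in turn gave 21 to 26 members spanning 2-fold, 0 to 0 variance calls, a large-small r of 0.971 to 0.985, a mean pairwise r of 0.402 to 0.494 and an r with respiratory genes of 0.833 to 0.926. Without subclone 3 the SD of MRPL13 was 0.32 in place of 0.47, and without subclone 10 that of MRPS31 was 0.14 in place of 0.23. No paired analysis was possible because there is 1 group and each subclone has 1 array. With 1 array per subclone, biological and technical differences between subclones cannot be told apart.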
